A study of Homo sapiens with 14 samples.

Results

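Activation of single genes in SW620 cells that grew without drug was read from guide counts at day 20 set against day 0. SW620 is an established human colorectal carcinoma line. All guides of the activation library were members, summarised per gene, so the comparison covered 18886 genes of the 19515 genes that the knockout and activation tables of the series name together. Both groups were cells expressing dCas9-VP64 and carrying the Calabrese guide library, with no drug: 1 library after 20 days and 1 library at day 0. The cells had been selected with blasticidin for dCas9-VP64, received the guides at a multiplicity near 0.3, and were selected with puromycin for 3 days. The libraries set beside them were SW620 activation cells after 20 days in oxaliplatin at 0.38 and at 0.5 µM, RKO activation cells (a second colorectal carcinoma line) without drug at days 20 and 0, and SW620 cells with Cas9 and the Brunello knockout library without drug at days 20 and 0. The labels name 1 library per condition and do not say whether the cells were a clone.

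In CRISPR activation a guide brings a nuclease-dead Cas9, fused here to the VP64 activator, to the DNA just before a gene's start, and transcription of that gene rises. Each cell carries about 1 guide, and the guide cassette in its genomic DNA serves as a barcode. A guide whose share of the pool falls marks cells that divided less or died, and a guide whose share rises marks cells that outgrew the others. Guide counts hold no expression, so how far each gene was activated is not known from these data, and slower division and death cannot be told apart.

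The day 20 library was the shallow one, with 3647823 counts and a median of 62 per guide, against 22152626 counts and a median of 381 at day 0. A guide that kept its share therefore had 6.09 times fewer counts at day 20. The library held 56762 guides, of which 496 were non-targeting, and 18591 genes had 3 guides. After guides with a mean scaled count below 20 were left out, 56555 guides remained and 18775 genes could be tested. The 495 non-targeting guides kept had a median log2 fold of 0.05 with an SD of 0.33, and ran from -1.31 to 1.02. Counting error alone gives an SD of 0.195 at these depths, so the controls spread 1.67 times as much as counting allows. Each value below is a log2 fold of day 20 over day 0 on scaled counts plus a pseudocount of 5, which understates the change of guides near 0, and a gene's value is the median over its guides. Each p compares these libraries and not the conditions, because no condition had a second library.

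Few genes were depleted, and none passed the test for enrichment. In the exact test 33 of 18775 genes (0.176%) were called lower at day 20 at an adjusted p below 0.10, and 0 genes (0%) were called higher, with 1004 genes at an unadjusted p below 0.05 for enrichment and a smallest adjusted p of 0.898. With 0.176% of all genes called lower, most short gene lists would hold no called gene, so a list without a call says little by itself. The 33 medians ran from -3.70 to -0.72. All 33 genes were tested with 3 guides. In 29 of them every guide lay below 0, and the other 4 had 1 guide above 0. Of their 99 guides, 55 lay below the lowest non-targeting guide, while 0.696% of all targeting guides did. The calls were made from the ranks of these same guides, so these counts describe the calls and give them no separate support. Over all genes tested the median was -0.0017 and 50.3% lay below 0, values that scaling by the median of guide ratios largely fixes. The tail was one-sided: 73 genes had a median at or below -1 and 0 genes had one at or above 1. With non-targeting guide scaling these counts were 91 and 0.

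**Figure D1:**
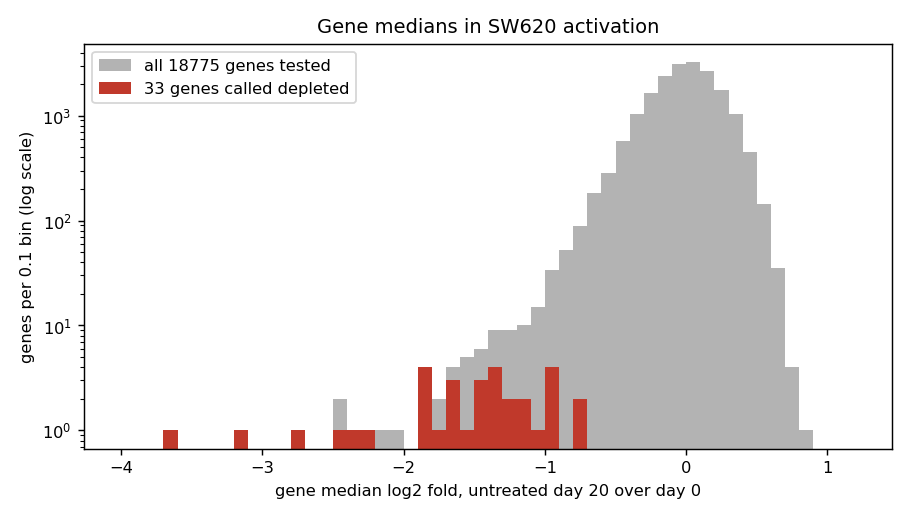
Number of genes (log scale) in bins of 0.1 by gene median log2 fold, untreated day 20 over day 0, for all 18775 genes tested (grey) and the 33 called depleted (red). The left tail reaches -3.70 and the right end 0.85.

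The promoters of 4 genes are shown because the guides act there: EOMES and PAX5 with the smallest p, EIF2AK2 for its interferon response motif, and KIF2C, called in both cell lines. Each runs 5′ to 3′ on the gene's strand from 250 bases before the annotated start to 50 bases from it, in capitals. They are RefSeq sequences of GRCh38.p14. The guides' own positions were not used here.
EOMES, chr3:27722274-27722573, minus strand: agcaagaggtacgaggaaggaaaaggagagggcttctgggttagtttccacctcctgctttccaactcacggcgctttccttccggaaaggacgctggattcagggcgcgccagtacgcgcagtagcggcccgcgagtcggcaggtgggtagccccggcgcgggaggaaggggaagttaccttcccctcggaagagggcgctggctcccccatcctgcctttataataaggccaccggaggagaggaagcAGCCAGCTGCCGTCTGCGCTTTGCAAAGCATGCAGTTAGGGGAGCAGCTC
PAX5, chr9:37034219-37034518, minus strand: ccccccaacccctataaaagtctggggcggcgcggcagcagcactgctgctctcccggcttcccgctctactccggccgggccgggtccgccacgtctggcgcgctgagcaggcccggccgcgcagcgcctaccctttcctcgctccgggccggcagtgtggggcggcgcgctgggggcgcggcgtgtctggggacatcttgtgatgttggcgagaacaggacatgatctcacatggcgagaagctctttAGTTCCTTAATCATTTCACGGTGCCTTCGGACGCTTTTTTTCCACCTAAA
EIF2AK2, chr2:37156931-37157230, minus strand: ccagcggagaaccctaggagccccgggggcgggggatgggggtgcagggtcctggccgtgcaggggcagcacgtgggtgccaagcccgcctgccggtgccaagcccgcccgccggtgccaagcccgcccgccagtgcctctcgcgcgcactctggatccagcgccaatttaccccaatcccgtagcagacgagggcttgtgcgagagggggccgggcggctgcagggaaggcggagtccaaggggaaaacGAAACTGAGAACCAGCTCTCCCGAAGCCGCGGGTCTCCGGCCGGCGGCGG
KIF2C, chr1:44739587-44739886, plus strand: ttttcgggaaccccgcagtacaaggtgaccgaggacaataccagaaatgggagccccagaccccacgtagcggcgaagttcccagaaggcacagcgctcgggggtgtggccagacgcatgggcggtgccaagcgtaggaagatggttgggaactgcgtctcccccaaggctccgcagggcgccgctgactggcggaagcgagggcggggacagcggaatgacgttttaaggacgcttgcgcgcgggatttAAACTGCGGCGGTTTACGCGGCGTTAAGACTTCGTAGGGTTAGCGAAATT

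Of the 33 genes, 29 matched 41 promoters in the table. Their GC content had a median of 63% (42.7 to 82.7%), against 62.7% over the 21059 promoters of all genes tested. Counted on both strands and with overlaps, sites of the letters NGG, which Cas9 needs beside its target, had a median of 64 in both. The letters GAAANNGAAA, the core of the interferon-stimulated response element, were searched on both strands. They stood in 5 of the 41 promoters (12.2%), those of EIF2AK2, PSME2, LUZP1 and TNFSF14, against 3.17% of all promoters. In EIF2AK2 they read GAAAACGAAA and begin 6 bases before the start. The letters TATAAA stood in 3 of the 41 (7.32%), searched on both strands as well, among them PAX5 on the gene's strand and EOMES on the other strand, against 9.37% of all. These matches describe the windows only. Within 1000 bases of the 33 starts lay the starts of 2 other genes with tested guides, RNF31 beside PSME2 at -0.15 and SFTA3 beside NKX2-1 at 0.14, neither called.

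Called genes are ordered below by roles assigned after their values were seen, with transcriptional regulators before the others. TP73, a factor that induces cell cycle arrest and death genes, had the lowest median. Its 3 guides had 0, 2 and 4 counts at day 20, against 250, 306 and 142 counts at day 0. The first guide was at least 13.7-fold lower, set against a floor of 3 counts. The second was 25.1-fold lower, with an exact 95% counting interval of its log2 fold from -7.70 to -2.79 (intervals and floors cover counting error only and use no pseudocount). The gene's median was -3.70 (exact test, adjusted p = 0.000633). Its relative TP63 was at -0.72 and was not called.

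EOMES, a T-box factor of early mesoderm and endoderm and of lymphocytes, had 1, 8 and 6 counts at day 20, against 361, 400 and 217 counts at day 0. Its first guide was 59.3-fold lower (counting interval of the log2 fold -11.20 to -3.40). The median was -2.76 (exact test, adjusted p = 0.000633). All 3 guides lay below every non-targeting guide. EOMES was the called member of 21 T-box and GATA factors, whose median was -0.09. GATA6, an endodermal factor, was at -0.92 and was not called.

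PAX5, which fixes B cell identity, had 3, 12 and 19 counts at day 20, against 196, 414 and 381 counts at day 0. Its guides lay at -2.77, -2.32 and -1.62, all below the non-targeting range (exact test, adjusted p = 0.000633). PAX6, its relative of eye and endocrine pancreas, had a median of -1.35 and an adjusted p of 0.123 in the exact test (0.0639 to 0.0964 under the 4 alternatives where it passed).

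Other lineage factors fell by less. NEUROD2, a neuronal bHLH factor, had a median of -1.68, with guides from -1.98 to -0.25. EVX1, a homeobox factor of the early embryo, had a median of -1.48, and its highest guide lay at -0.13. WT1, the Wilms tumour factor, had 8, 38 and 28 counts at day 20, against 411, 571 and 319 counts at day 0, and a median of -1.26. ETS1 (-1.65), the circadian repressor BHLHE41 (-1.38), GLIS3 (-0.997), the corepressor LCOR (-0.96) and the lung and thyroid factor NKX2-1 (-0.78) were the others, beside E2F7 below. Over these 8 genes the exact test's adjusted p ran from 0.0223 for NEUROD2 to 0.0969 for NKX2-1. The call of NKX2-1 was lost under 3 alternatives (adjusted p up to 0.348), that of LCOR under 2 (0.208), and those of BHLHE41 (0.12) and GLIS3 (0.161) without standardising.

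The intestinal lineage factors, the list closest to the tissue of origin, had no called member of 33 tested. Their median was -0.13 and 10 of 33 lay at or below -0.5, against 3.81% of all genes tested. PRDM1, a repressor of differentiating cells, had the largest value, with 2 guides kept at -3.17 and -1.74 (1 and 5 counts at day 20, against 153 and 131 counts at day 0, a further guide being left out for low counts; exact test, adjusted p = 0.143). PRDM1 passed under 4 alternatives (adjusted p down to 0.015). NEUROG3, which starts the enteroendocrine lineage, was at -1.44 with its highest guide at -0.17 (exact test, adjusted p = 0.591, but 0.096 without standardising). GFI1, of secretory cells, was at -1.08. FOXA2 was at -0.80, and CDX2, the intestinal master factor, at -0.65. GFI1 and CDX2 each had 1 guide above 0, at 0.22 and 0.21. In the list 23 of 33 medians lay below 0 (69.7%, against 50.3% of all genes), and PPARG was highest at 0.28. The SOX factors had no called member of 19, and SOX2 had the largest value at -0.996. Its adjusted p in the exact test was 0.201, but 0.0655 with bins of the day 0 count and 0.0715 without standardising.

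**Figure D2:**
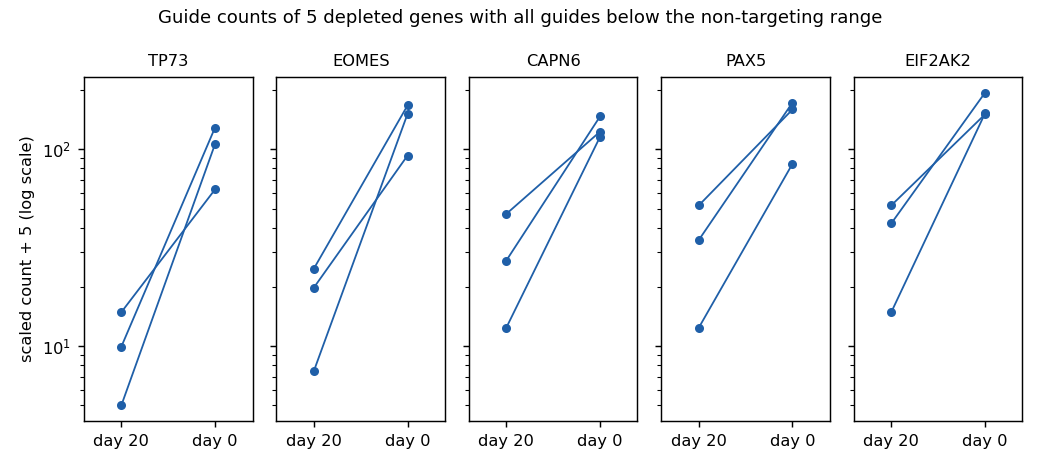
Scaled count plus 5 (log scale) of each guide at day 20 (left) and day 0 (right), joined by lines, for the 5 depleted genes whose guides all lie below the non-targeting range. Every guide is lower at day 20, and a TP73 guide has 0 counts there.

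None of 29 RAS-ERK brakes, genes that dampen growth signalling, passed, with a median of -0.08 and the lowest value at SPRED3 (-0.68).

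The CDK inhibitors, most of which stop the cell cycle before replication, had the lowest list median, -0.71 over 8 genes. All 8 medians lay below 0, against 50.3% of all genes, with CDKN3 at -0.0021 (0.0075 in the authors' normalized table). CDKN2B, which blocks CDK4 and CDK6, was called: its guides had 23, 26 and 34 counts at day 20, against 505, 323 and 405 counts at day 0, and a median of -0.97 (exact test, adjusted p = 0.0969). The call was lost with a count minimum of 50 and with the SD as spread, with an adjusted p of up to 0.172. CDKN2C (-1.58) and CDKN1C (-1.41) had lower medians than CDKN2B but were not called, and their highest guides lay at -0.30 and -0.26. The adjusted p of CDKN2C in the exact test was 0.442, but 0.0589 without standardising. CDKN1B was at -0.74 and CDKN1A at -0.67, both from 2 kept guides, and those of CDKN1B went opposite ways at -1.75 and 0.26. The list median of -0.71 is the mean of these 2 genes' values. The others were CDKN2D at -0.34 and CDKN2A at -0.15. E2F7, an atypical E2F that represses replication genes, was the called member of 13 RB and E2F genes, with 9, 14 and 37 counts at day 20, against 314, 277 and 440 counts at day 0, and a median of -1.57 (exact test, adjusted p = 0.019). Its partner E2F8 was at -0.32. No cyclin or cell cycle kinase of 24 passed, and CCNE2 had the lowest value at -0.95.

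The angiomotins AMOT and AMOTL2, which hold the growth coactivator YAP in the cytoplasm and at cell junctions, were both called. The guides of AMOT had 10, 21 and 44 counts at day 20, against 218, 351 and 487 counts at day 0, with a median of -1.37 (exact test, adjusted p = 0.0282). Those of AMOTL2 had 12, 25 and 32 counts at day 20, against 298, 394 and 411 counts at day 0, with a median of -1.30 (exact test, adjusted p = 0.019). The third angiomotin, AMOTL1, was at 0.16 with 2 guides kept. Of 19 Hippo suppressors these were the 2 called, the list median was -0.06, and the kinases LATS1 and LATS2 were at -0.03 and -0.51. None of 12 YAP and TEAD effectors passed, and their median was 0.04.

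KIF2C, a kinesin that takes microtubules apart at mitosis, had 8, 12 and 32 counts at day 20, against 285, 290 and 345 counts at day 0. Its median was -1.82 (exact test, adjusted p = 0.0789, and 0.145 with the SD as spread within bins). PTPN12, a tyrosine phosphatase of adhesion sites, had close guides from -1.37 to -0.93.

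EIF2AK2 encodes PKR, a kinase that binds double-stranded RNA and halts translation through eIF2. Its guides had 4, 15 and 19 counts at day 20, against 363, 466 and 359 counts at day 0, and all lay below the non-targeting range (median -2.21, exact test, adjusted p = 0.00236). It was the called member of 39 interferon regulators and effectors, whose median was -0.03. Other called genes, outside that list, were SP100, a nuclear body protein (-1.61), PSME2, a proteasome activator subunit (-1.35, with 1 of 3 guides at 0.13), and SAMHD1, which breaks down deoxynucleotides. SAMHD1 had the smallest median change of the 33, with guides close together: 54, 56 and 51 counts at day 20, against 613, 571 and 498 counts at day 0, and guides from -0.87 to -0.66. Its call (exact test, adjusted p = 0.0789) was lost when folds were standardised in bins of the day 0 count or not at all, with an adjusted p of up to 0.177, and that of PSME2 was lost without standardising (0.128). APOBEC3A, a cytidine deaminase, had 2 guides near -2.1 and 1 at -0.16, and an adjusted p of 0.111 in the exact test (0.015 to 0.0978 under the 4 alternatives where it passed).

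Among stress and death genes, no p38 or JNK pathway gene of 30 was called, and 26 of 30 medians lay below 0, against 50.3% of all genes, and the list median was -0.28. JUN (-0.71, with 1 guide at 0.25), MAPK9 (-0.68) and MAPK10 (-0.61) were the 3 at or below -0.5, and MAPK13 was highest at 0.28. No death receptor or caspase of 29 was called. The list median was -0.01, 15 of 29 lay below 0 (51.7%, against 50.3% of all genes), and GSDMC was highest at 0.56. TNFRSF10B, the receptor DR5, was at -1.55 (exact test, adjusted p = 0.152, but 0.0632 with bins of the day 0 count and 0.0259 without standardising). TNFRSF10A, the receptor DR4, was at -0.999 from 2 kept guides, with 5 and 8 counts at day 20, against 79 and 102 counts at day 0. MLKL, the effector of necroptosis, was at -0.90. None of 14 pro-apoptotic BCL2 family genes passed, with a median of -0.07 and BAK1 lowest at -0.86.

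**Figure D3:**
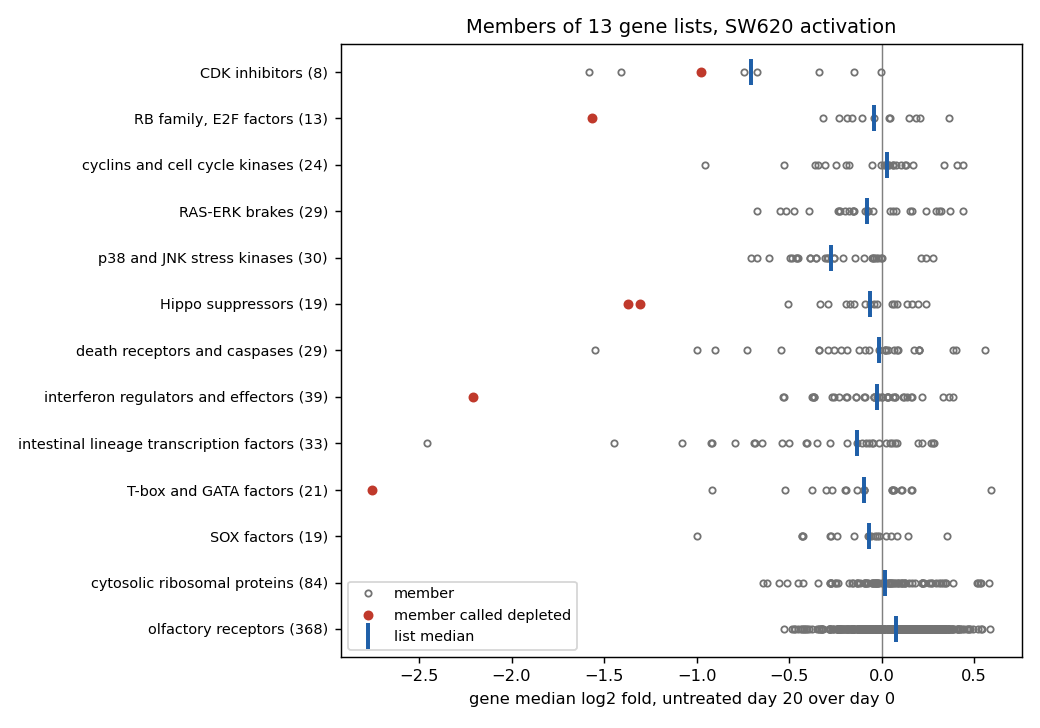
Gene median log2 fold, untreated day 20 over day 0, of each tested member (circles; called members red) in 13 gene lists, with list medians as blue bars and the number of members in brackets. The CDK inhibitors have the lowest list median, -0.71, and the olfactory receptors sit at 0.07.

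The remaining called genes act at the surface, in transport and metabolism or in the cytoskeleton. CAPN6, a calpain without protease activity that binds microtubules, had 3, 9 and 17 counts at day 20, against 273, 350 and 291 counts at day 0, and a median of -2.43 (exact test, adjusted p = 0.00722). SLC29A4, a monoamine transporter, had a median of -1.47, NCEH1, a cholesterol ester hydrolase, of -1.84, GK5, a glycerol kinase, of -1.89 and SLC25A29, a mitochondrial carrier of basic amino acids, of -0.996. TNFSF14, a ligand of the TNF family, lay at -1.48, CDH5, the cadherin of endothelium, at -1.27 and LRRC15, a membrane protein of stromal cells, at -1.05. LUZP1, an actin and centrosome protein (-1.70), WASHC1, an endosomal actin regulator (-1.89), and SYNC, an intermediate filament protein (-1.20), each had 1 guide above 0. The calls of SYNC (adjusted p up to 0.208 in the exact test) and SLC25A29 (0.159) were lost under alternative standardising. WASHC1 has near-identical copies in the genome, so its guides may act at more than 1 gene and its value is uncertain.

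**Figure D4:**
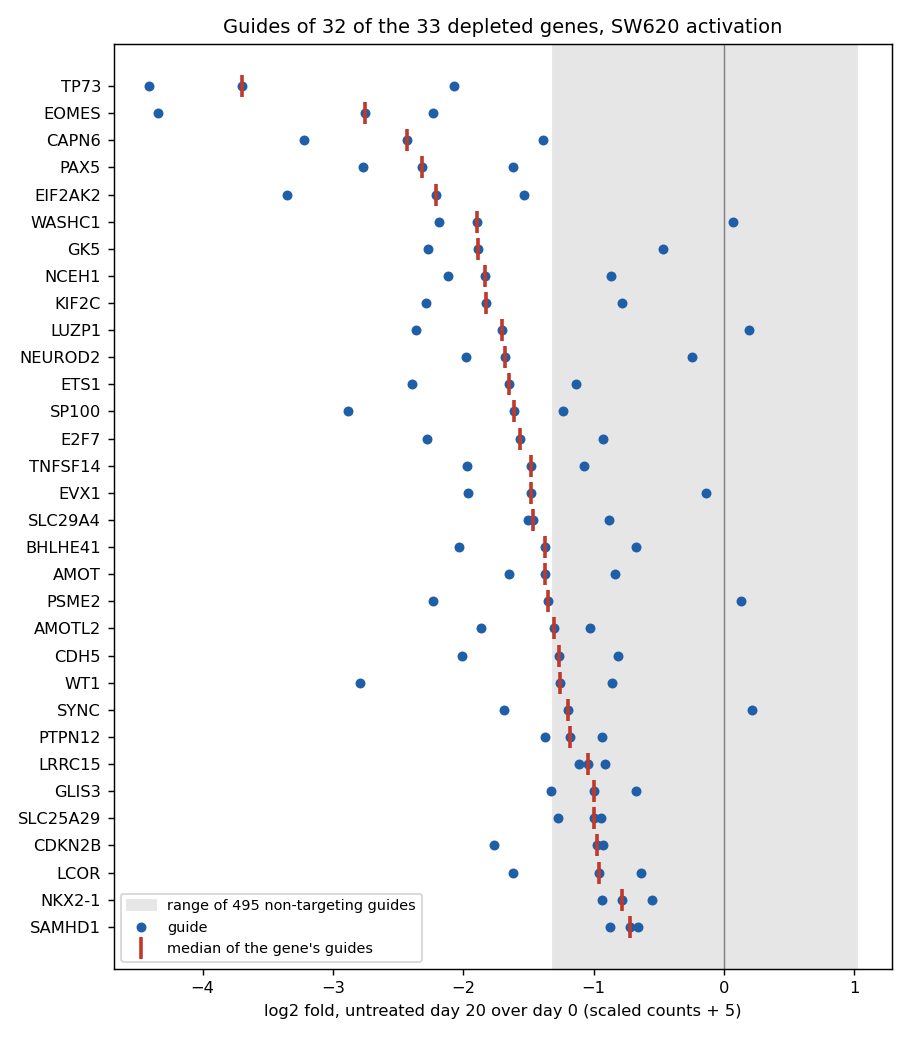
Log2 fold, untreated day 20 over day 0, of each guide (blue points) of 32 of the 33 depleted genes, with gene medians as red bars and the range of the 495 non-targeting guides in grey. In 5 genes all 3 guides lie below the grey band, in 4 genes none does.

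On the enriched side, several genes of smallest p were led by single guides. SARS, a tRNA synthetase, had the smallest (exact test, p = 0.000157, adjusted 0.898), from 1 guide at 1.51 while its others lay near 0 and its median was 0.16. AHNAK (0.06), CCND2, a D-type cyclin (0.06), and DGCR2 (0.0017) had medians near 0, and those of C11orf74 (-0.32), KMT2E (-0.36) and OR5P3 (-0.40) were below 0. Higher medians among the 15 of smallest p were those of SULT6B1 (0.85), FRMD8 (0.71), IFITM2 (0.67), BATF2 (0.62), RPL32 (0.58), ZFYVE16 (0.55), RPS28 (0.53) and OR51B5 (0.52). By median with every guide above 0, SULT6B1 was followed by SLC2A7 (0.73), PIH1D1 (0.72), ZNHIT3 (0.68) and the receptor kinase EPHA2 (0.68). None of these genes was called. Of other growth genes, AKT2 was at 0.52, the highest of 30 PI3K, AKT and mTORC1 activators. The median of that list was -0.04, and 17 of 30 lay below 0. PIK3R1 was its lowest at -0.89 and was not called (exact test, adjusted p = 0.591, but 0.0451 without standardising). The apoptosis inhibitors BCL2 and XIAP were at 0.30 and 0.33. XIAP was the highest of 11 such genes, whose median was -0.04 with 6 of 11 below 0.

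Genes that every cell needs were not called in either direction, against 0.176% of all genes tested called lower and 0% called higher. With lists this short, that is near the share over all genes. The medians of cytosolic ribosomal proteins (84 tested), proteasome subunits (39) and core spliceosome proteins (38) were 0.02, -0.03 and 0.01. Olfactory receptors, genes without a known role in these cells, had a median of 0.07 over 368 genes. A further 20 gene lists, the PI3K, AKT and mTORC1 activators and the apoptosis inhibitors among them, had no called member either. Their medians ran from -0.10 (Notch pathway) to 0.09 (respiratory complex I). SLC43A1, the amino acid transporter for which the series is named, was at -0.05, with guides from -0.67 to 0.13.

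The same library was also grown in RKO. There, in cells without drug, 21 of 18779 genes (0.112%) were called lower and 0 (0%) higher. KIF2C and AMOTL2 were called in both lines, 6.06% of the SW620 calls and 9.52% of the RKO calls. KIF2C was at -1.82 in SW620 and -4.01 in RKO, and AMOTL2 was at -1.30 in SW620 and -2.19 in RKO. Of the 33 genes, 24 (72.7%) had a median below 0 in RKO, against 50.2% of all genes there. EIF2AK2 (-1.83), CDKN2B (-1.37) and TNFSF14 (-1.08) were among the lower ones without passing in RKO. TP73 (0.11) and PAX5 (0.52) were above 0 in RKO, and EOMES was at -0.36. In the other direction, TNFRSF10B, CCNE2 and CDKN2C were called in RKO at -3.44, -3.47 and -2.27 and were at -1.55, -0.95 and -1.58 in SW620 without passing. PLK4 and SLC7A11, called in RKO at -3.01 and -2.44, were at 0.29 and 0.45 in SW620. RKO counts were deeper (32887159 at day 20 and 57502347 at day 0). The difference between the lines was not tested, since guides could not be matched between their tables.

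**Figure D5:**
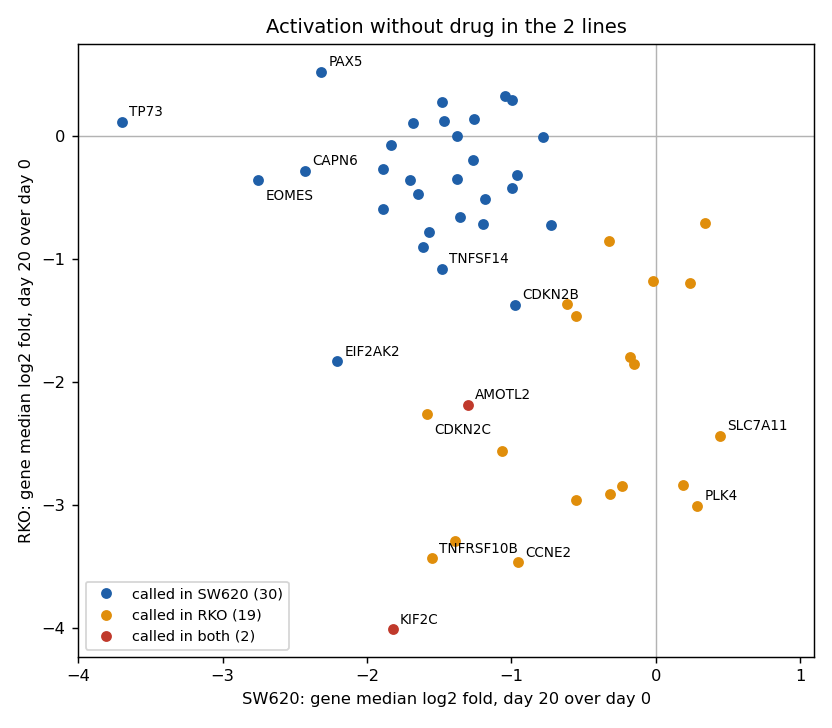
Gene median log2 fold, untreated day 20 over day 0, in SW620 (x axis) and RKO (y axis) for genes called depleted in SW620 (32 of the 33), RKO or both. KIF2C and AMOTL2 are the 2 called in both lines, and TP73 and PAX5 lie above 0 in RKO.

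Loss of the same genes in SW620 gave no call. In the SW620 knockout screen without drug 682 of 19100 genes (3.57%) were called lower and 1 (0.00524%) higher, and of the 32 activation calls tested there 0 were called in either direction, with knockout medians from -0.67 (BHLHE41) to 0.35 (AMOT). E2F7 was at 0.26 under knockout. Conversely, of the 652 genes lower under knockout that were tested by activation, 0 were called lower, against 0.176% of all genes. Of the 652, 4.14% lay at or below -0.5 against 3.81% of all genes, and their activation median was -0.01. CTNNB1, the Wnt effector, was lower under knockout (-0.87) and had an activation median of -0.64 with guides from -2.79 to 0.49, which was not called.

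The oxaliplatin libraries share day 0 with the untreated comparison and are given side by side only. Over day 0, the medians of the 33 genes ran from -5.58 to 1.16 at 0.38 µM and from -5.48 to 1.38 at 0.5 µM. The genes that follow were chosen after their values were seen. Their medians at 0.38 and 0.5 µM were -4.58 and -4.19 for TP73 and -5.58 and -5.07 for EOMES. For EIF2AK2 they were -5.26 and -5.48, and for PAX5 -2.46 and 0.09. ETS1 was at 1.16 and 1.38 there. Non-targeting guides spread far more in these libraries, with SDs of 0.951 and 1.06 over day 0.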

How the data were processed

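Guide cassettes amplified from genomic DNA were sequenced. The authors deposited raw counts per guide for each screen. A second deposited table holds a normalized signal, which a check showed to be each count column times 1 constant. Tools named in the submitters' processing notes are cutadapt 4.0 and MAGeCK 0.5.7; their roles and the genome build are not given in the sources used here. All columns matched a sample (0 left over).

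Library scaling used the median of guide ratios, and log2 folds used a pseudocount of 5. Folds were standardised by median and median absolute deviation in 50 bins of the mean scaled count, ranked, and aggregated per gene by robust rank aggregation (rank shares up to 0.25, at least 2 guides, 3 for knockout) in Python 3.11.15 with scipy 1.17.1. The p is exact for independent ranks, adjusted by Benjamini-Hochberg over all genes tested and called below 0.10. The code was tested on simulated data. With 1 library per condition edgeR has no residual degrees of freedom, so the test sets a gene's guides against the other guides of the same libraries. Alternatives changed the pseudocount, count filter, scaling, standardising, rank share, guides needed and the summary over guides.

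The 39 gene lists and the comparison itself were chosen with earlier results of these data known. Named genes are, per direction, the 15 of smallest p and the 5 of largest median with 3 or more guides all on 1 side of 0, then called members of each list or otherwise the 2 of largest median, and SLC43A1. Other genes were chosen after their values were seen: called genes beyond the 15, RKO calls, and relatives or near misses such as TP63, AMOTL1, LATS1, LATS2, E2F8, the other CDK inhibitors, PAX6, APOBEC3A, GATA6, GFI1, CDX2, MAPK10, MLKL and CTNNB1. Of 18886 library symbols 17939 are current in RefSeq, 828 are older names and 119 matched none. Guide sequences were not used here, and results for some genes and lists, 1 depleted gene among them, are not reported here.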

Additional observations from a re-analysis of the deposited data

Results flagged for a closer look

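The table holds 1 guide for 105 genes, which were left out of the test. Of these, NOTCH2 and RPS18 lay below every non-targeting guide, as did 0.696% of all targeting guides. With 1 guide, no second guide of the gene can be set beside it. The NOTCH2 guide had 14 counts at day 20, against 340 counts at day 0, a log2 fold of -1.85. The RPS18 guide had 23 counts at day 20, against 381 counts at day 0, a log2 fold of -1.37. The lowest non-targeting guide was at -1.31.

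Of the 33 depleted genes, 5 had every SW620 guide below 0 and every RKO guide above 0: NEUROD2 (RKO median 0.10), EVX1 (0.27), LRRC15 (0.32), GLIS3 (0.29) and WT1 (0.13). Their SW620 medians were -1.68, -1.48, -1.05, -0.997 and -1.26. A call for depletion itself favours guides below 0 in SW620, and 29 of the 33 had every guide there. The share of all genes with every RKO guide above 0 was not counted, so the 5 cannot be set against it. The difference was not tested, guides of 1 gene share their libraries, and the RKO non-targeting guides had an SD of 0.402.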

How the results depend on the processing

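Of the 33 depleted genes, 22 were called under all 11 alternatives for the test, ETS1 under the 10 where it was tested (with a count minimum of 50 it kept 1 guide and dropped out), the enriched count was 0 under each, and the depleted count ran from 29 to 43. Scaling alternatives moved the median of all genes by at most 0.05. With bins of the day 0 count 29 of the 33 remained among 43 calls, with no standardising 26 among 42, with a count minimum of 50 31 among 32, and with the SD as spread (chosen after seeing the data) 29 among 29. The calls of SYNC, LCOR, SAMHD1 and NKX2-1 were lost with both other ways of standardising, those of BHLHE41, GLIS3 and PSME2 with none, that of CDKN2B with the minimum of 50 and with the SD, and those of KIF2C, SLC25A29 and NKX2-1 with the SD; the cause was not tested. The largest adjusted p over the alternatives of the exact test was 0.00312 for EOMES, 0.00129 for TP73 and 0.348 for NKX2-1. Of the uncalled genes named, PRDM1, APOBEC3A and PAX6 passed under 4 alternatives each. TNFRSF10B, SOX2, TSPYL2 and ZNF296 passed with both other ways of standardising, and CDKN2C, NEUROG3, OR6K2 and PIK3R1 without standardising. In all 20 genes passed under an alternative only. Signs turned for PSMC6 with no filter (0.23), OR5P3 with the minimum of 50 (0.46), DGCR2 with total counts (-0.0024) and non-targeting scaling (-0.043), and CDKN3 in the authors' normalized table (0.0075); with the mean over guides they turned for C11orf74 (0.15), KMT2E (0.14) and OR5P3 (0.073). The median of 62 counts per guide at day 20 limits small changes. No paired analysis was possible because each condition had 1 library.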

Other observations

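A guide lay below the lowest non-targeting guide in 351 genes, and in 200 of the genes tested with 3 or more guides it was the only such guide while the others lay above -0.5. The lowest guide of the comparison was of this kind: an OR6K2 guide, for an olfactory receptor, had 0 counts at day 20, against 273 counts at day 0, at least 14.9-fold lower against a floor of 3 counts, while its other guides lay at -0.02 and 0.13. The gene was not called (exact test, adjusted p = 0.207), but passed the exact test without standardising (adjusted p = 0.0746). The guide had 254 and 822 counts in the oxaliplatin libraries at 0.38 and 0.5 µM.

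Of the 73 genes with a median at or below -1, 46 were not called, and in 35 of those every guide lay below 0. Among the 46 were TSPYL2 (-1.77, with 1 guide at 0.13), KLF6 (-1.18), the oestrogen receptor ESR1 (-1.17), the Wnt coreceptor LRP5 (-1.19, 2 guides), HES7 (-1.17, 2 guides), MAML2 (-1.12) and ZNF296 (-1.09). In the exact test TSPYL2 and ZNF296 had an adjusted p of 0.177 and 0.2. They passed it with bins of the day 0 count (adjusted p = 0.0603 and 0.0584) and without standardising (both 0.0309).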
